A study of Mus musculus with 2 samples.

Results

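The interferon genes described here are 9 of the 53700 genes in both count matrices, found by their symbols. They are the immunity-related GTPases Iigp1, Igtp and Irgm1, the guanylate-binding proteins Gbp2 and Gbp7, the signalling and regulatory factors Stat2 and Irf7, and the antiviral proteins Bst2 and Isg15. They were chosen because Iigp1 had already been seen to differ strongly between these libraries, so its difference in muscle nuclei is given as a description, and the question was whether it stood alone or with the others. The data are single-nucleus RNA counts from quadriceps muscle of PTRF KO mice and of WT mice, both 3 months old, with 1 library of each genotype. PTRF is the older name of Cavin1, which coats caveolae, the small pits of the plasma membrane. The labels give neither the number and sex of the mice nor the exact allele.

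Interferons bind receptors whose Janus kinases activate STAT proteins, and these bind short DNA letters in front of their target genes. The mouse GTPases are among the targets that respond most strongly, above all to interferon gamma. They collect on the vacuoles of intracellular pathogens, where Iigp1 acts as an effector, while Irgm1, Irgm2 and Igtp keep the effectors off the cell's own membranes. Guanylate-binding proteins work on the same vacuoles. Stat2 works with Irf9 in the complex that answers type I interferon, Irf7 drives transcription of type I interferon genes, Bst2 tethers budding virus to the membrane, and Isg15 is a ubiquitin-like modifier.

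Sequence in front of 3 of the GTPase genes is shown because their levels moved with Iigp1 from nucleus to nucleus, as described further down, and because they carry both sets of letters searched for. Irgm1 moved likewise, but its window held 2 overlapping response elements and 0 gamma-activated sites, in a stretch annotated as exon, which is not printed. The stretches come from the RefSeq promoter table of GRCm38.p6, and lie on the plus strand at chr11:58199481-58199551 for Igtp, chr11:58214872-58214942 for Irgm2 and chr3:142530200-142530312 for Gbp7. Capitals mark letters that match GAAANNGAAA, a form of the interferon-stimulated response element, or TTCNNNGAA, a form of the gamma-activated site, on either strand.
Igtp: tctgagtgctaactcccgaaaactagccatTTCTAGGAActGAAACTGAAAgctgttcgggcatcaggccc
Irgm2: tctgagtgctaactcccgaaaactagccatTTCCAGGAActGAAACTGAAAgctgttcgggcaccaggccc
Gbp7: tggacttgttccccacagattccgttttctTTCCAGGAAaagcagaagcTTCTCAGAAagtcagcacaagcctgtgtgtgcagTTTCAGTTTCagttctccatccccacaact
In the Igtp and Irgm2 stretches the gamma-activated site comes first and the response element right after it. Over the full promoter windows, these genes share an unbroken run of 61 bases. In the Gbp7 stretch, 2 gamma-activated sites precede a response element read on the other strand. Of all 32851 promoter windows of 300 bases in the table, 3.44% held the response element letters, 8.30% the gamma-activated letters and 0.454% both. Iigp1 itself had no window in the table. Of the 8 members with a window, 7 held the response element letters and 3 the gamma-activated letters. These 3 were Igtp, Gbp7 and Bst2, and Bst2 held both sets too, though it was hardly counted in muscle nuclei. A match says that the letters are there, not that a factor binds.

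After quality filters, 7762 PTRF KO and 10272 WT nuclei were kept, with a median of 1562 and 703 unique molecular identifiers (UMIs, counted RNA molecules) per nucleus. The libraries shared 24 barcodes. Levels are given as CPM, counts per 1000000 UMIs of the named nuclei, without correction for gene length, so they compare a gene between groups and not 1 gene with another. Intervals are exact 95% intervals for counting error only. No test across animals exists with 1 library per genotype, so neither "higher" nor "lower" below says that genotypes differ beyond the spread between mice. A difference is called when its whole interval lies beyond 2-fold. Nuclei led by myofibre genes are called myonuclei-like, 5419 in PTRF KO and 6600 in WT, and all 12 myofibre markers were detected in both. Clusters without a name held 0.979% of PTRF KO and 27.5% of WT nuclei and stayed outside the comparisons. Cavin1 had 2 UMIs among all PTRF KO nuclei, against 75 among all WT nuclei, as the labels require.

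In myonuclei-like nuclei, Iigp1 had 581 UMIs in PTRF KO and 6 in WT, or 46.9 and 0.864 CPM, a log2 ratio of 5.65 (4.63 to 7.22). It was found in 167 of 5419 PTRF KO nuclei, 3.08%, and in 6 of 6600 WT nuclei, 0.0909%. After nuclei were thinned to 500 UMIs, to set aside the difference in depth, the shares were 1.20% and 0.0541%. Nuclei with fewer UMIs were left out of all thinned values, 2055 of all WT nuclei and 0 of PTRF KO. Thus 5543 of the 6600 WT myonuclei-like nuclei remained, without the shallowest. Iigp1 lies on chromosome 18 (GRCm38, 60376027 to 60392634, plus strand) and overlaps no other annotated gene.

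The other members showed smaller differences. Gbp7 had 80 UMIs in PTRF KO and 27 in WT myonuclei-like nuclei, or 6.46 and 3.89 CPM, a log2 ratio of 0.72 (0.09 to 1.42). Igtp had 31 and 6 UMIs, or 2.50 CPM in PTRF KO and 0.864 CPM in WT, a log2 ratio of 1.44 (0.25 to 3.09). Both had the interval above 0, but neither interval lay wholly above 2-fold, so neither was called higher, though the Igtp estimate itself exceeded 2-fold. Irgm1 leaned the other way, with 36 UMIs in PTRF KO and 32 in WT, or 2.91 and 4.61 CPM, a log2 ratio of −0.67 (−1.39 to 0.07). Stat2 had 82 and 38 UMIs, or 6.62 CPM in PTRF KO and 5.47 CPM in WT, a log2 ratio of 0.27 (−0.30 to 0.87), so its levels were not told apart at this depth.

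Gbp2, Irf7, Bst2 and Isg15 were hardly counted in muscle nuclei. Gbp2 had 0 UMIs in PTRF KO and 2 in WT myonuclei-like nuclei. Irf7 had 2 and 0, and Bst2 had 2 and 3. Isg15 had 0 UMIs in every nucleus of both libraries, which allows up to 0.242 CPM in PTRF KO and 0.432 CPM in WT myonuclei-like nuclei. Of the 9 members, 5 reached the 20 UMIs asked for, and 1 of these, Iigp1, was called higher. Among all 14610 genes with that many UMIs, 1.55% were called higher, a share given as context only because Iigp1 was chosen on this contrast. The median log2 ratio of the other 4 members was 0.49, beside −0.08 over all genes tested.

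**Figure D1:**
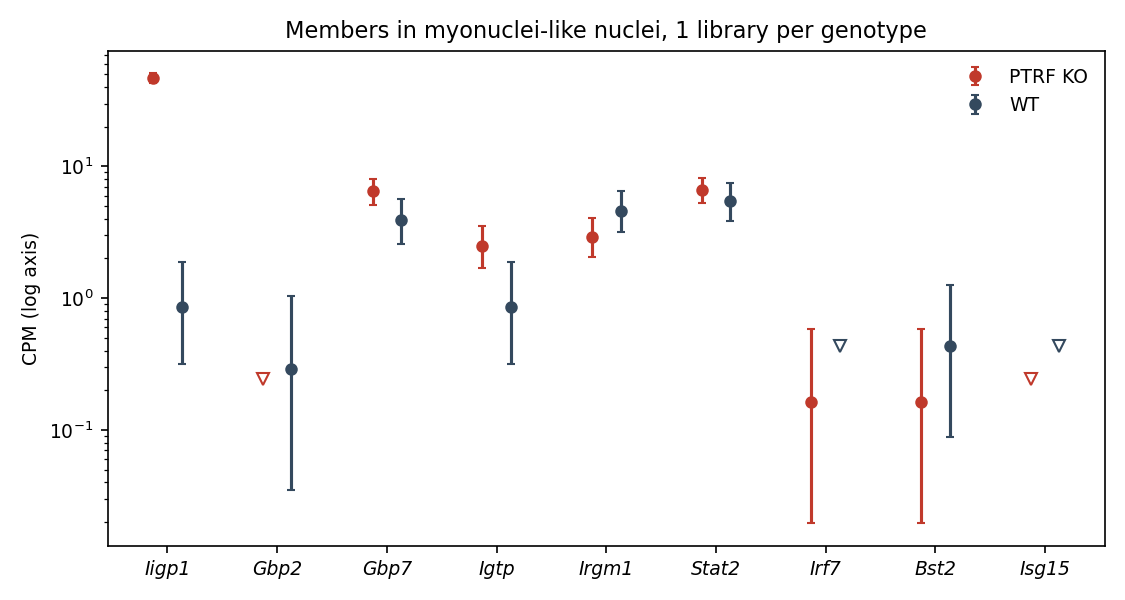
Level of each member in myonuclei-like nuclei in CPM (log axis), PTRF KO in red and WT in dark blue, with exact 95% counting intervals. Open triangles mark a count of 0, drawn at the level of 3 UMIs. Iigp1 stands at 46.9 CPM in PTRF KO and 0.864 CPM in WT, and the other members lie within a factor of a few of each other or at the detection limit.

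Of 156 other genes in 9 interferon lists, 58 reached 20 UMIs in myonuclei-like nuclei, and 3 of these were called higher and 2 lower, beside 1.55% and 13.4% of all genes. All 3 called higher are GTPases of the immunity-related family. Gm4841, listed in RefSeq also as Ifgga3, had 257 UMIs in PTRF KO and 11 in WT, or 20.8 and 1.58 CPM, a log2 ratio of 3.65 (2.85 to 4.73). F830016B08Rik, also Ifgga4, had 2252 and 241 UMIs, or 182 CPM in PTRF KO and 34.7 CPM in WT, a log2 ratio of 2.39 (2.20 to 2.59). Irgm2, a regulator among these GTPases, had 156 and 18 UMIs, or 12.6 CPM in PTRF KO and 2.59 CPM in WT, a log2 ratio of 2.25 (1.57 to 3.07). Irgm2 overlaps Igtp on the same strand of chromosome 11, so the split of UMIs between this pair is uncertain. After thinning to 500 UMIs per nucleus Irgm2 was no longer called, at a log2 ratio of 1.52 (0.49 to 2.77), while Gm4841, at 2.35 (1.32 to 3.73), and F830016B08Rik still were. Gbp7 likewise overlaps Gm43802.

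The wider GTPase family did not go one way. Gbp5 had 8 UMIs in PTRF KO and 16 in WT (log2 ratio −1.79, −3.27 to −0.53), Gbp6 had 10 and 18 (−1.65, −2.96 to −0.49), and Gm4951, also Ifgga2, had 9 and 19 (−1.87, −3.24 to −0.70). Over the 8 measured genes of that list the median log2 ratio was −0.59.

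Among receptors and kinases, 5 of 6 measured genes were higher in PTRF KO with the interval above 0, beside 22.0% of all genes, and none was called. Jak1 stood at 659 CPM in PTRF KO and 357 CPM in WT (0.89, 0.82 to 0.95) and Jak2 at 111 and 59.9 CPM (0.89, 0.74 to 1.06). Ifngr1 and Ifngr2, the chains of the interferon gamma receptor, had log2 ratios of 0.71 (0.23 to 1.24) and 0.51 (0.10 to 0.95). Ifnar1, a chain of the type I receptor, had −0.26 (−0.69 to 0.17). All 21 interferon ligand genes were at 0 UMIs in the myonuclei-like nuclei of both libraries.

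Of 6 measured transcription factors, Irf2 alone had its interval above 0 (0.52, 0.44 to 0.59). Irf9, the partner of Stat2, had −0.05 (−0.56 to 0.50). Socs1, which switches off Janus kinase signalling, had 51 UMIs in PTRF KO and 7 in WT, a log2 ratio of 1.95 (0.89 to 3.42). Of the 4 measured genes that restrain the pathway, 3 had the interval above 0, beside 22.0% of all genes.

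Among classical antiviral genes, few passed in either direction. Of 19 measured effectors, 2 had the interval above 0, Ifi35 at 1.00 (0.50 to 1.54) and Rtp4 at 0.89 (0.54 to 1.26), and 6 had it below 0, beside 22.0% and 31.5% of all genes, so the share below 0 was that of all genes. Slfn5 was called lower, with 13 UMIs in PTRF KO and 29 in WT (−1.96), the end of its interval lying just past 2-fold. The DNA sensor Aim2 was the other gene called lower, with 3 and 19 UMIs (−3.31, −5.90 to −1.73). The median log2 ratio over the 58 genes was 0.04, beside −0.08 over all genes tested.

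**Figure D2:**
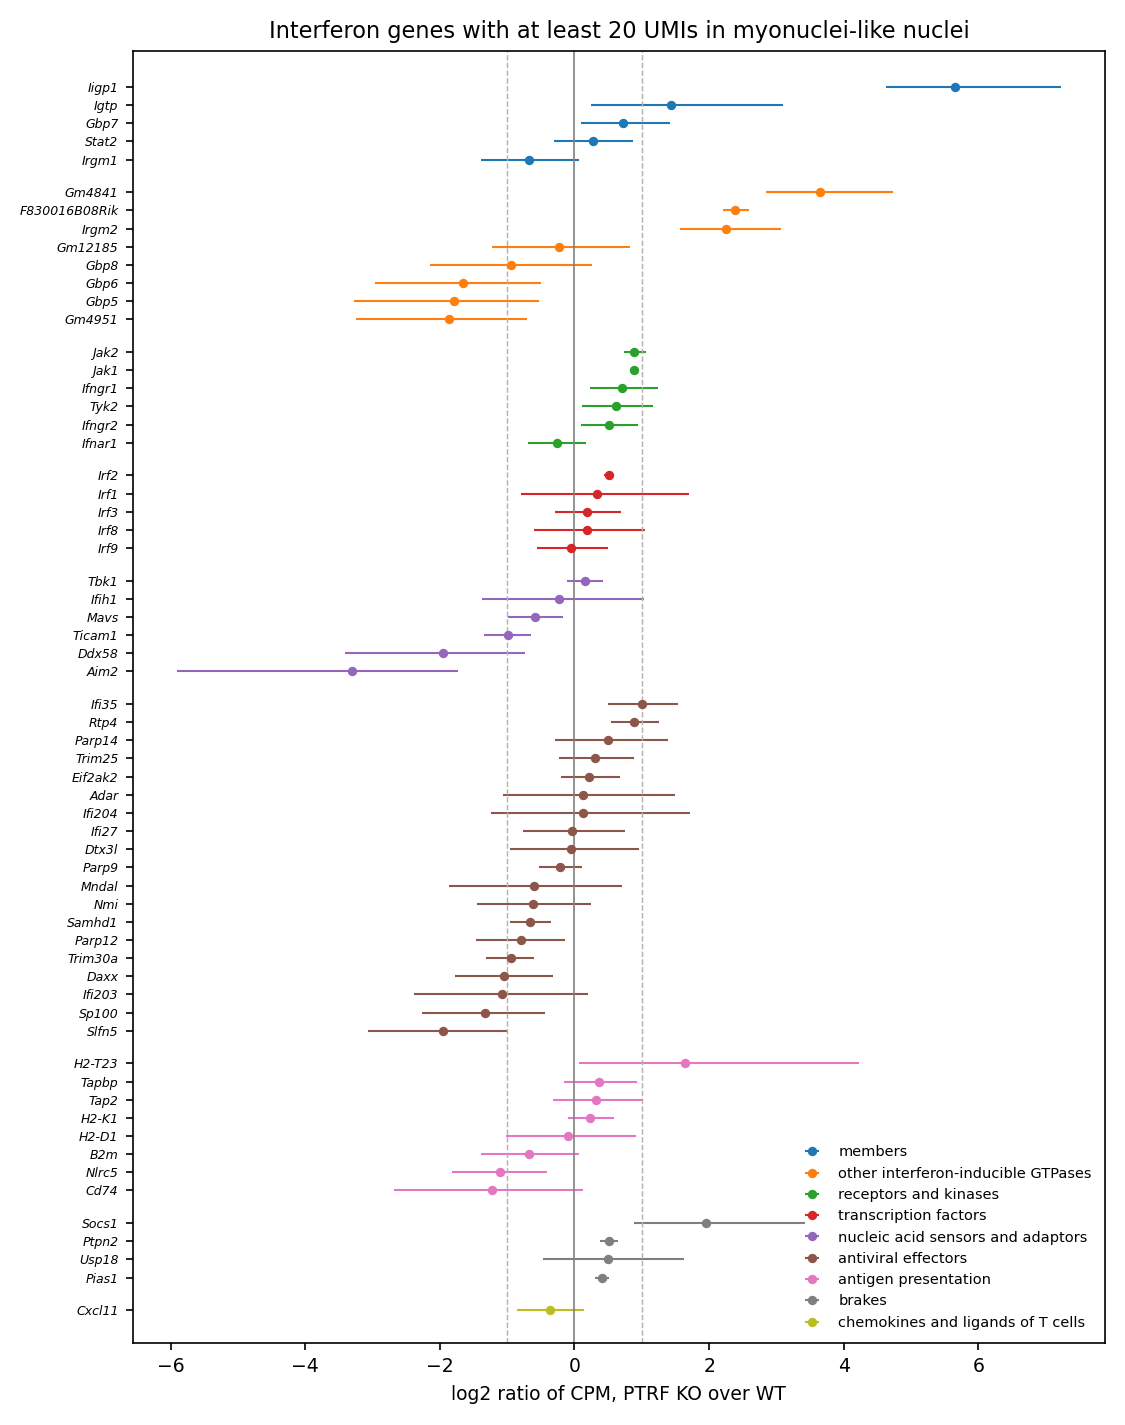
Log2 ratio of CPM, PTRF KO over WT, in myonuclei-like nuclei for the 5 measured members and for measured genes of the other interferon lists, grouped by list, with exact 95% counting intervals. Dashed lines mark 2-fold. The intervals of Iigp1, Gm4841, F830016B08Rik and Irgm2 lie wholly above 2-fold, those of Slfn5 and Aim2 lie wholly below it, and each of the rest holds a value within these lines.

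F830016B08Rik and Gm4841, the chromosome 18 GTPase genes called higher, lie close to Iigp1. Gm4951, which was lower in PTRF KO (−1.87, −3.24 to −0.70), lies beyond Gm4841 on the same side, at 60212080 to 60247820. On the side of lower coordinates, F830016B08Rik ends 73.0 kb away and Gm4841 103 kb away, and the noncoding AC132320.1, which overlaps F830016B08Rik on the opposite strand, ends closer to Iigp1 (40 UMIs in PTRF KO, 12 in WT, log2 ratio 0.86, −0.06 to 1.97). On the other side, the pseudogene BC023105, 49.1 kb away, had 944 and 286 UMIs (0.89, 0.70 to 1.08). Smim3, 81.6 kb away, had 6 UMIs in PTRF KO and 17 in WT (−2.26, −3.97 to −0.93), and Dctn4, which encodes a dynactin subunit, had 657 and 282 (0.38, 0.18 to 0.59). Among these neighbours, only F830016B08Rik and Gm4841 had intervals wholly above 2-fold. AC132320.1 and BC023105, which reach nearer to Iigp1, did not.

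By fibre type, nuclei were sorted by the myosin heavy chain gene with the most UMIs, Myh7 for type I, Myh2 for IIa, Myh1 for IIx and Myh4 for IIb. Type IIb made up 78.4% of PTRF KO and 62.0% of WT myonuclei-like nuclei, so the ratios over all myonuclei-like nuclei compare different mixes of fibre types. Of the 581 Iigp1 UMIs in PTRF KO, 552 were in type IIb nuclei and 29 in nuclei without a myosin UMI. The 877 PTRF KO nuclei of types I, IIa and IIx held 0 among 1999074 UMIs, which allows up to 1.50 CPM. The type IIb level of 55.3 CPM was 36.9-fold that limit, taken as 3 UMIs over the group, without allowing for counting error in the type IIb level. At the type IIb level these nuclei would have held 111 Iigp1 UMIs, a figure that treats UMIs of 1 nucleus as independent, which they are not. By nucleus, 161 of 4248 PTRF KO type IIb nuclei were positive, against 0 of these 877. Their median depth, 1822 UMIs, was close to the 1842 of type IIb nuclei.

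In WT, Iigp1 had 3 UMIs in 4093 type IIb nuclei and 1 in the 1557 nuclei of the other types. The type IIb log2 ratio, PTRF KO over WT, was 6.10 (4.77 to 8.61). With fibre types called on nuclei thinned to 500 UMIs, 1 PTRF KO type IIx nucleus carried an Iigp1 UMI and no type I or IIa nucleus did.

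Of the 31 Igtp UMIs in PTRF KO myonuclei-like nuclei, 30 were in type IIb nuclei, as were 74 of 80 for Gbp7, 68 of 82 for Stat2 and 31 of 36 for Irgm1. The shares of Stat2 and Irgm1 were near the 78.4% of PTRF KO myonuclei-like nuclei that were type IIb, so they show no type IIb preference by themselves. Within type IIb, Igtp had 30 UMIs in PTRF KO and 4 in WT (1.56, 0.20 to 3.67), Gbp7 had 74 and 25 (0.35, −0.30 to 1.08), Stat2 had 68 and 24 (0.29, −0.39 to 1.04), and Irgm1 had 31 and 25 (−0.89, −1.70 to −0.07). Of these 5 measured members, Iigp1 alone was called higher, beside 1.37% of all genes in type IIb. In type IIx, Gbp7 had 5 UMIs in PTRF KO and 0 in WT, Stat2 had 6 and 6, and Irgm1 had 2 and 3. In type IIa, Stat2 had 6 and 4 UMIs and Gbp7 and Igtp had 0 in both libraries. No member reached 20 UMIs in either type, where 1.26% and 1.44% of all genes measured there were called higher.

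F830016B08Rik was also mainly a type IIb transcript, at 219 CPM in PTRF KO and 50.1 CPM in WT type IIb nuclei, against 18.1 and 7.81 CPM in type IIx and 10.8 and 5.09 CPM in type IIa. Gm4841 had 252 UMIs in PTRF KO and 7 in WT type IIb nuclei, and 3 and 2 in type IIx. Iigp1, F830016B08Rik and Gm4841 thus had most of their UMIs in type IIb nuclei in PTRF KO.

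Outside muscle fibres, the counts of Iigp1 were small. Fibro-adipogenic-like nuclei held 19 Iigp1 UMIs in 616 PTRF KO nuclei and 1 in 322 WT nuclei, or 24.8 and 3.65 CPM, a log2 ratio of 2.22 (0.11 to 8.14). Macrophage-like nuclei held 5 and 1 UMIs and mural-like nuclei 1 and 1. Because free RNA from fibres can reach any droplet, Iigp1 was also set against the titin gene Ttn, an abundant fibre transcript. Per 1000 Ttn UMIs, Iigp1 stood at 1.38 (0.828 to 2.15) in PTRF KO fibro-adipogenic-like nuclei and 0.949 (0.874 to 1.03) in PTRF KO myonuclei-like nuclei, with intervals that overlap. The part of free fibre RNA in these counts was not tested.

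Endothelial-like nuclei differed from this pattern. They held 31 Iigp1 UMIs in 254 PTRF KO nuclei and 5 in 36 WT nuclei, or 94.2 CPM (64.0 to 134) in PTRF KO and 180 CPM (58.6 to 421) in WT. Positive nuclei made up 5.91% in PTRF KO and 11.1% in WT. Per 1000 Ttn UMIs Iigp1 stood at 5.38 (3.65 to 7.63) in PTRF KO and 4.92 (1.60 to 11.5) in WT, above the myonuclei-like values of 0.949 and 0.0125 with intervals that did not overlap. In WT, 5 of all 18 Iigp1 UMIs came from these 36 nuclei, while 6 came from 6600 myonuclei-like nuclei. With fewer than 50 WT nuclei no ratio is given for this class. The cluster carried markers of both blood and lymphatic vessels.

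Adipocyte-like nuclei formed 2 clusters that differed between the libraries. The one rich in lipid synthesis genes held 968 PTRF KO and 7 WT nuclei, and its 35 PTRF KO Iigp1 UMIs gave 19.6 CPM and 4.61 (3.21 to 6.42) per 1000 Ttn UMIs. The other held 111 PTRF KO and 244 WT nuclei with 3 and 1 Iigp1 UMIs. For Iigp1 in PTRF KO, the order of CPM began with muscle nuclei without a myosin UMI (99.7, from 6 positive nuclei), endothelial-like nuclei (94.2), type IIb nuclei (55.3) and fibro-adipogenic-like nuclei (24.8). Then came the lipogenic adipocyte-like cluster (19.6), macrophage-like nuclei (15.6), the other adipocyte-like cluster (11.9) and mural-like nuclei (8.27), with the other fibre types at 0 UMIs. The counting intervals of the first 2 overlap, as do those of neighbours from fibro-adipogenic-like to mural-like, while that of type IIb nuclei overlaps neither neighbour's. The first places rested on single nuclei: 1 nucleus held 19 of the 29 Iigp1 UMIs in the nuclei without a myosin UMI, and 1 held 12 of the 31 in endothelial-like nuclei. Without the highest nucleus of each, Iigp1 stood at 34.5 CPM in nuclei without a myosin UMI, 58.1 CPM in endothelial-like nuclei and 49.2 CPM in type IIb nuclei, a check chosen after the values were seen.

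Gbp2, Irf7 and Bst2, nearly missing from muscle nuclei, had a few UMIs elsewhere, and Isg15 had 0 there too. In PTRF KO, 15 of the 25 Gbp2 UMIs were in adipocyte-like and 6 in fibro-adipogenic-like nuclei. In WT, Gbp2 had 4 UMIs in all. Of 8 Irf7 UMIs in PTRF KO, 4 were in adipocyte-like nuclei, and WT had 0. Of 14 Bst2 UMIs in PTRF KO, 5 were in fibro-adipogenic-like nuclei, against 2 of 6 in WT.

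Stat2 had a higher CPM in fibro-adipogenic-like and macrophage-like nuclei than in myonuclei-like nuclei in both libraries. It stood at 35.3 CPM in PTRF KO and 36.5 CPM in WT fibro-adipogenic-like nuclei, a log2 ratio of −0.09 (−1.14 to 1.16), and at 43.8 and 65.9 CPM in macrophage-like nuclei (log2 ratio −0.64, with an interval that spanned 0). These compare with 6.62 CPM in PTRF KO and 5.47 CPM in WT myonuclei-like nuclei. Endothelial-like nuclei held 12 Stat2 UMIs in PTRF KO and 0 in WT, where the 36 nuclei allow up to 108 CPM, and mural-like nuclei held 2 and 3. Gbp7 had 12 UMIs in PTRF KO and 1 in WT fibro-adipogenic-like nuclei (1.58, −0.66 to 7.52), while Irgm1 had 0 and 4. No member reached the 2-fold call in these classes, where the shares of measured genes that did were 0.727% (fibro-adipogenic-like), 1.10% (macrophage-like) and 1.96% (mural-like).

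**Figure D3:**
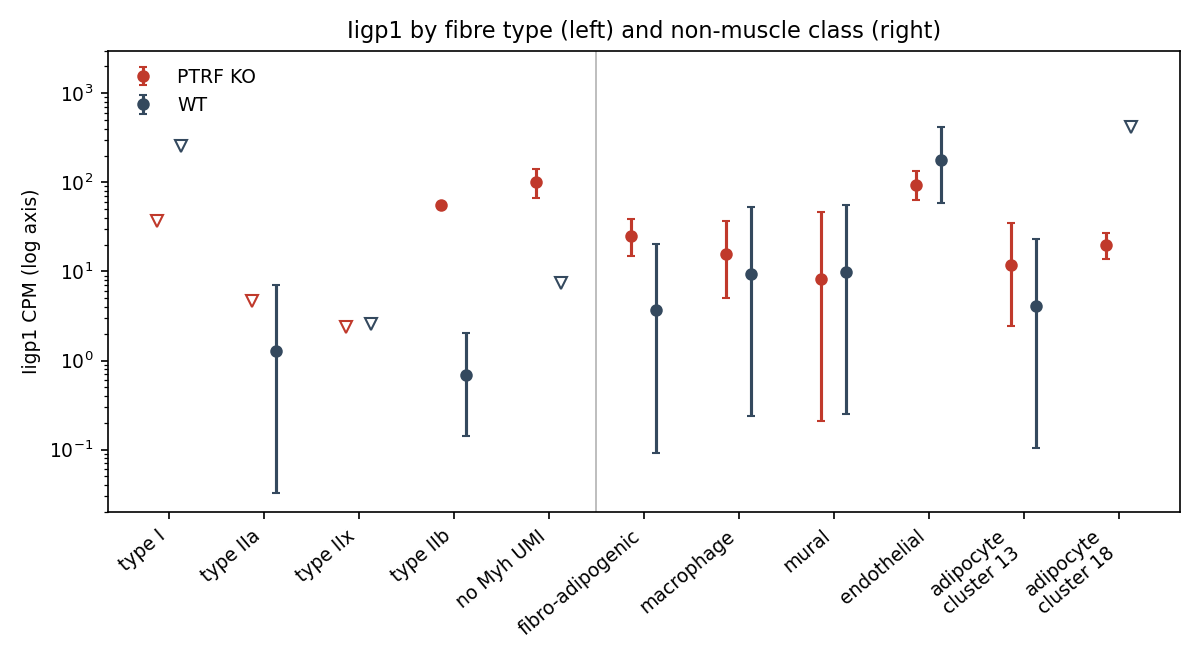
Iigp1 level in CPM (log axis) by fibre type, left of the line, and by non-muscle class, right of it, PTRF KO in red and WT in dark blue, with exact 95% counting intervals. Open triangles mark a count of 0, drawn at the level of 3 UMIs. PTRF KO type IIb nuclei stand at 55.3 CPM while types I, IIa and IIx hold no Iigp1 UMI, and endothelial-like nuclei are high in both libraries. Adipocyte cluster 18 is the lipogenic one.

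Iigp1 was not spread evenly over the PTRF KO muscle nuclei. Of the 167 positive myonuclei-like nuclei, 95 carried 1 UMI, 23 carried 2 and 49 carried 3 or more. Those 49 held 440 of the 581 UMIs, 75.7%, and 9 nuclei with 10 or more held 253, 43.5%. The highest had 62 Iigp1 UMIs and lay in a cluster led by myotendinous junction genes, where it made up all but 3 of the 65 PTRF KO UMIs. In WT, each of the 6 positive nuclei carried 1. Because the UMIs of 1 nucleus are not independent, the counting intervals of Iigp1 are too narrow. Counted once per nucleus, its log2 ratio was 4.97 (3.93 to 6.55), and without the 9 highest nuclei it was 4.83 (3.81 to 6.40).

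The 49 nuclei with 3 or more Iigp1 UMIs were compared with the 5252 PTRF KO myonuclei-like nuclei with none, leaving Iigp1 out of the totals. This split was chosen after the values were seen, and nuclei of 1 library are not replicates, so it is a description. The other GTPases were higher in the Iigp1-rich nuclei. Gbp7 stood at 111 CPM in nuclei with 3 or more Iigp1 UMIs and 4.75 CPM in those with none (4.57, 3.74 to 5.31), and was seen in 13 of the 49. Igtp stood at 55.7 and 1.61 CPM (5.14, 3.84 to 6.29), seen in 9 of the 49. Irgm1 stood at 55.7 and 2.21 CPM (4.70, 3.44 to 5.76), seen in 7 of the 49.

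Stat2 stood at 27.8 CPM in the Iigp1-rich nuclei and 6.11 CPM in those without Iigp1 (2.32, 0.52 to 3.48), on 5 UMIs. Gbp2, Irf7, Bst2 and Isg15 had 0 UMIs in the 49 nuclei, where 3 UMIs would be 16.7 CPM and the exact interval ends at 20.5 CPM. Outside the 9 members, Gm4841 stood at 501 and 12.5 CPM (5.33, 4.93 to 5.72), Irgm2 at 150 and 10.4 CPM (3.88, 3.20 to 4.47) and F830016B08Rik at 1030 and 165 CPM (2.65, 2.42 to 2.86).

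Of 11561 genes in this comparison, 26 were called higher in the Iigp1-rich nuclei, 0.225%, and 12 of these were among the 47 interferon genes measured. The others of the 12 included Parp14, Dtx3l, Nlrc5 and H2-K1. Rtp4 was the 1 interferon gene with its interval below 0, with 0 UMIs in the Iigp1-rich nuclei and 280 in those without Iigp1, the upper end of its log2 ratio being −0.20. Gm12185, a further GTPase, was at 44.5 and 1.19 CPM. Of the 15 highest by the lower end of the interval, 11 were interferon genes, and the rest included BC023105, Gm38251 and Tnfsf10. The median log2 ratio was 1.30 over the interferon genes and 0.12 over all genes tested. The fibre transcript Ttn, which encodes titin, stood at 48524 and 49360 CPM in these groups.

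The co-occurrence also held per nucleus. At least 1 UMI of Gbp7, Igtp, Irgm1 or Irgm2 was found in 23 of 49 nuclei with 3 or more Iigp1 UMIs, 46.9% (32.5 to 61.7), in 12 of 118 nuclei with 1 or 2, 10.2%, and in 197 of 5252 with none, 3.75% (3.25 to 4.30). In WT it was 1.12%. The Iigp1-rich nuclei were deeper, with a median of 2969 UMIs against 1752 in nuclei without Iigp1, but after thinning to 500 UMIs the shares were 20.4% (10.2 to 34.3) with 3 or more Iigp1 UMIs and 0.743% (0.529 to 1.01) with none.

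The comparison of the libraries was also made without these 49 nuclei. They were picked by Iigp1 and are all from PTRF KO, so genes that were high in them had to lose height. Without the 49, the log2 ratio of Iigp1 was 3.63 (2.58 to 5.21), the log2 ratio of Gbp7 was 0.32 (−0.34 to 1.05), that of Igtp 0.91 (−0.36 to 2.59) and that of Irgm1 −1.11 (−1.92 to −0.32). Neither Gbp7 nor Igtp then had an interval above 0. The ratios of Gm4841 (3.05, 2.24 to 4.14), Irgm2 (1.99, 1.31 to 2.83) and F830016B08Rik (2.29, 2.09 to 2.49) were still wholly above 2-fold. F830016B08Rik was also the most widespread, with at least 1 UMI in 1169 PTRF KO and 207 WT myonuclei-like nuclei. In PTRF KO nuclei without any Iigp1 UMI it stood at 165 CPM, against 34.7 CPM in WT nuclei.

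**Figure D4:**
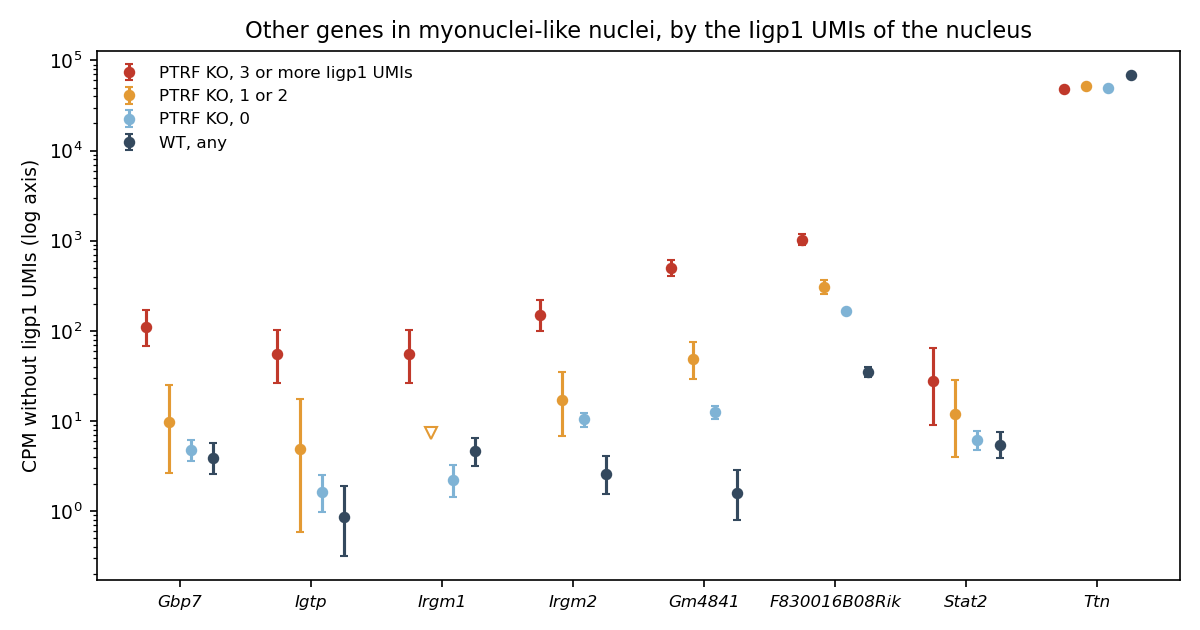
CPM (log axis, Iigp1 left out of the totals) of other genes in PTRF KO myonuclei-like nuclei with 3 or more, 1 or 2, or 0 Iigp1 UMIs, and in WT myonuclei-like nuclei, with exact 95% counting intervals. An open triangle marks a count of 0, drawn at the level of 3 UMIs. Gbp7, Igtp, Irgm1, Irgm2 and Gm4841 are highest in the 49 nuclei with 3 or more Iigp1 UMIs, while Ttn is nearly level among the PTRF KO groups.

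The PTRF KO library held nuclei of both sexes, told by the X-inactivation RNA Xist and by Eif2s3y, Kdm5d, Uty and Ddx3y, all Y-linked, while WT nuclei carried almost only Y-linked UMIs. The Iigp1 signal lay on 1 side. Among PTRF KO myonuclei-like nuclei, the 574 marked by Xist alone held 1 Iigp1 UMI, 0.895 CPM, and the 2744 marked by Y-linked UMIs alone held 479, 62.4 CPM. The 1969 Y-marked WT nuclei held 1, 0.333 CPM. The Xist-marked nuclei were shallower, with a median of 1583 UMIs against 2349 in Y-marked nuclei, and after thinning Iigp1 was found in 0 of 574 and 1.75% of 2744. Within type IIb nuclei of PTRF KO the levels were 1.42 CPM in Xist-marked and 70.5 CPM in Y-marked nuclei. Of the 49 Iigp1-rich nuclei, 40 were Y-marked, 0 were Xist-marked and 9 carried neither mark.

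Gm4841 had 2 UMIs in Xist-marked and 188 in Y-marked PTRF KO nuclei, and F830016B08Rik stood at 51.9 and 215 CPM in these groups. In WT nuclei with the Y mark F830016B08Rik stood at 35.6 CPM. Gbp7 had 0 UMIs in Xist-marked and 60 in Y-marked PTRF KO nuclei, at a limit of 2.68 CPM and a level of 7.82 CPM. Irgm2 differed less, at 8.95 and 14.6 CPM, and stood at 2.33 CPM in WT nuclei with the Y mark. Irgm1 stood at 3.58 and 3.00 CPM, and Stat2 at 4.47 and 6.38 CPM.

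Outside muscle fibres the marked groups were smaller, and the difference between classes was not tested. In PTRF KO fibro-adipogenic-like nuclei Iigp1 stood at 33.3 CPM (10.8 to 77.6) in Xist-marked and 43.9 CPM (21.1 to 80.8) in Y-marked nuclei. In adipocyte-like nuclei, 27 of the 38 PTRF KO Iigp1 UMIs were in 713 Xist-marked nuclei, at 21.1 CPM, and 0 were in 75 Y-marked nuclei, which allows up to 14.1 CPM. In endothelial-like nuclei Iigp1 was lower in Xist-marked nuclei, as in muscle nuclei, with 1 UMI in 44 Xist-marked nuclei, 16.2 CPM (0.411 to 90.5), and 20 in 59 Y-marked nuclei, 201 CPM (123 to 310), of which 6 were positive.

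Set against Y-marked WT nuclei, Y-marked PTRF KO nuclei had log2 ratios of 6.97 (5.07 to 12.86) for Iigp1, 0.71 (−0.11 to 1.70) for Gbp7, 1.45 (−0.07 to 4.02) for Igtp, −0.84 (−1.81 to 0.19) for Irgm1 and 0.63 (−0.25 to 1.72) for Stat2. Among these members Iigp1 alone was called higher, beside 1.58% of all genes. Outside the members, Gm4841 (5.62, 3.71 to 11.51), F830016B08Rik (2.59, 2.31 to 2.89) and Irgm2 (2.55, 1.56 to 3.99) were also called higher in this comparison. For Xist-marked PTRF KO nuclei against Y-marked WT nuclei, F830016B08Rik had a log2 ratio of 0.55 (0.06 to 1.02) and Irgm2 1.91 (0.40 to 3.57), and Iigp1 had 1 UMI on each side, too few to compare. Nuclei cannot be assigned to animals, so sex and animal cannot be told apart here, and WT offers almost no Xist-marked nuclei for comparison.

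**Figure D5:**
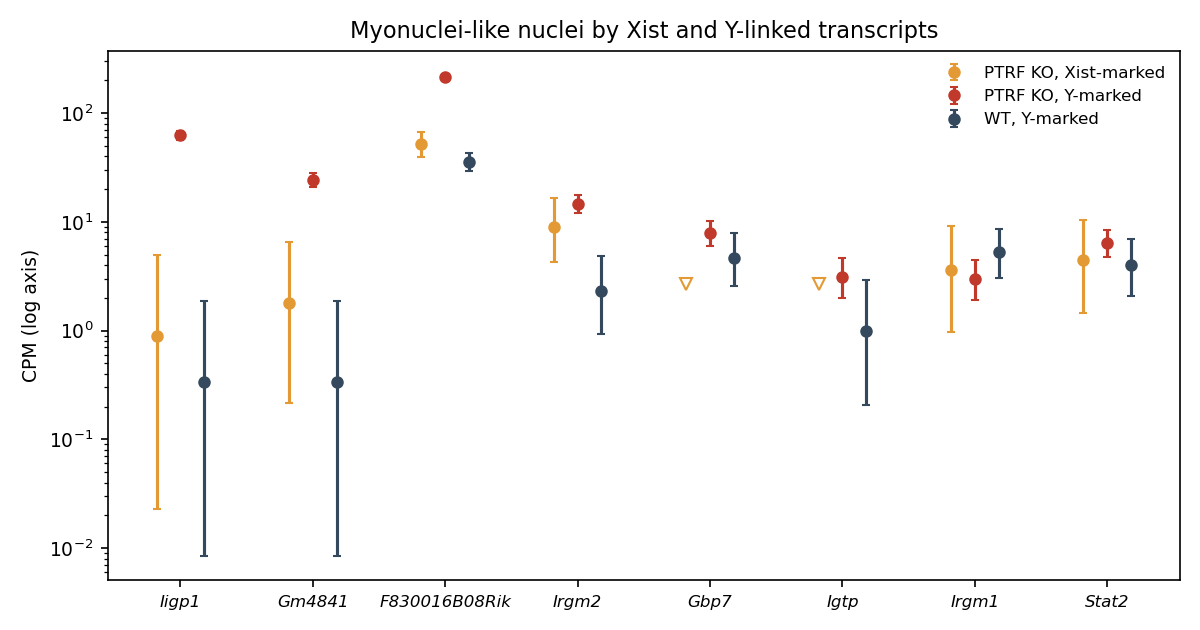
CPM (log axis) in myonuclei-like nuclei of PTRF KO marked by Xist alone, of PTRF KO marked by Y-linked UMIs alone and of WT marked by Y-linked UMIs alone, with exact 95% counting intervals. Open triangles mark a count of 0, drawn at the level of 3 UMIs. Iigp1 is at 62.4 CPM in Y-marked PTRF KO nuclei, 0.895 CPM in Xist-marked PTRF KO nuclei and 0.333 CPM in Y-marked WT nuclei.

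Across 32 groups of nuclei, each 1 cluster in 1 library with at least 50 nuclei, Gm4841 was the gene most like Iigp1 among 10857 genes ranked, with a Pearson r of 0.866 on log2 CPM with 5 CPM added. Next came Lrrc3b (0.764), Phf21a (0.731), Esyt2 (0.714) and the death-receptor ligand Tnfsf10 (0.711). Irgm2 ranked 11 (0.687), F830016B08Rik 62 (0.597) and Gbp7 139 (0.548), while Stat2 had 0.188 and Irgm1 −0.115. These groups share 2 libraries and their depths, so the values only describe them. Tnfsf10 was also among the genes called higher in the Iigp1-rich nuclei, at 89.1 CPM against 13.8 CPM in nuclei without Iigp1.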

How the data were processed

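Per the labels' protocols, nuclei were isolated from homogenised quadriceps and captured with 10x Genomics 3′ v3.1 chemistry. The authors deposited whole-number UMI counts for each gene in each barcode. Per the file headers these are Cell Ranger 6.0.0 output, and the submitters' processing notes list Seurat 4.1.1, STAR, mm10 and GRCm38. Whether introns and strand were used in counting, the annotation and the calling of barcodes are not given there.

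The 9 genes and the lists were chosen with earlier results of these data known. Nuclei with 200 or more genes and no more than 5% of UMIs from mitochondrial genes were clustered together (scanpy 1.11.5, 2000 variable genes without interferon-list genes, 30 components, Leiden resolution 1) without batch integration, into 19 clusters named by marker scores. No doublet caller was used. Sums per class gave CPM and log2 ratios, PTRF KO over WT, with 0.5 UMI added and exact conditional binomial intervals. Genes needed 20 UMIs. On simulated sums for 14610 genes, drawn with counting error only, 95.9% of intervals held the true ratio. Such draws hold no clumping of UMIs within nuclei, so they check the calculation and not its coverage in these data. Beside all members, the text names interferon genes beyond 2-fold, 3 neighbours on each side of Iigp1 and the 5 genes most like it. Other list genes were named after their values were seen, and some genes that enter the counts are not reported here by name. Depth totals 16052317 UMIs in PTRF KO and 9746980 in WT. Alternatives covered filters, thinning, TMM factors from edgeR 4.0.16, clustering and sex marks.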

Additional observations from a re-analysis of the deposited data

Results flagged for a closer look

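F830016B08Rik also differed in the clusters without a name, which the comparisons leave out. There it had 12 UMIs in 76 PTRF KO nuclei and 87 in 2829 WT nuclei, a log2 ratio, PTRF KO over WT, of 1.57 (0.52 to 2.40). It stands here because it is a signal in nuclei outside the main measurement. Iigp1 had 1 and 3 UMIs in these clusters. The part of shallow or mixed nuclei in this value was not tested.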

How the results depend on the processing

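The Iigp1 log2 ratio in myonuclei-like nuclei lay between 4.47 (all nuclei without classes) and 7.10 (nuclei with at least 500 genes), and at 3.63 without nuclei of 3 or more Iigp1 UMIs, a choice made on Iigp1 itself. The values of 4.47 and 3.63 left the main interval. Of 68 values that answer a comparison, among which the 3.63 was not counted, 63 were counted as kept. A ratio was kept if it stayed within the main interval, and a count if it changed little, as from 3 to 2. Where the main interval is wide, this rule is loose and says little about size. The others were the 4.47 and 4 counts. The 3 interferon-list genes called higher became 2 in thinned nuclei, where Irgm2 lost its call, 5 with TMM factors and 11 over all nuclei. For Xist-marked PTRF KO over Y-marked WT nuclei, the members called higher fell to 0 of 1 measured and the list genes to 1 of 27 measured. TMM factors moved the median log2 ratio of all genes to 0.16, from −0.08. Thinned nuclei gave no median of the other members, since fewer than 3 reached 20 UMIs, and the Xist-marked comparison gave no Iigp1 ratio. The alternatives that count each nucleus once or leave out Iigp1-rich nuclei were added after seeing the data. No paired analysis was possible because each genotype has 1 library, and no replicate could be left out. Counts under 20 UMIs limit Gbp2, Irf7, Bst2 and Isg15.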
